A study of Mus musculus with 4 samples.

Results

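Collagens are encoded by a large gene family, and the 44 gene rows whose symbol has the form of a collagen chain (Col, a type number, a, a chain number) are described here, out of 32285 genes counted in both libraries. They were taken by name from the gene lists of the deposited count matrices, with no use of their values. The cells came from mammary organoids grown from fat pads, lymph nodes removed, of virgin mice aged 8 to 9 weeks. Organoids were cultured under 4 conditions that the labels call COL1 (collagen), STIFF (stiff), SOFT (soft) and MATR (Matrigel), and the series set out to compare cultures of different stiffness. Neither the age of the cultures nor a genotype or strain is given in the sources used here, and all conditions share the same tissue source. Each condition was 1 culture, marked with a hashtag antibody and sequenced by droplet single-cell RNA sequencing, COL1 together with STIFF on 1 channel and MATR together with SOFT on the other. With 1 culture per condition no test of a difference was possible, every interval below covers counting error only, and COL1 over MATR and STIFF over SOFT cannot be told apart from a difference between channels.

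A collagen molecule is a triple helix of 3 chains, which may be products of 1 gene or of several. Fibrillar collagens such as types I, III and V form the banded fibres of connective tissue, and fibril-associated collagens decorate their surface. Network collagens such as type IV make the mesh of basement membranes, type VI makes beaded filaments at the border of cells and matrix, type VII makes anchoring fibrils, and transmembrane collagens such as type XVII sit in the cell membrane. In the mammary gland, stromal fibroblasts are known as makers of the interstitial collagens, while a basement membrane separates the epithelium from the stroma.

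The filter on barcodes kept 9568 in the COL1 and STIFF pool and 7945 in the MATR and SOFT pool, with medians of 10087.5 and 12626 unique molecule counts (UMIs) per barcode, and 19 kept barcodes occurred in both pools. Hashtags gave 1563 cells in COL1, 2451 in STIFF, 1941 in SOFT and 2333 in MATR. No tag was called for 54.9% of them in the pool of COL1 with STIFF and for 42.7% in the other, and these were left out. Which tag marked which culture is not stated in the labels. It was taken from how the deposited matrices are named, and with the tags of a pool swapped every ratio inside that pool would be inverted. Clusters were made without the collagen genes, so that cell classes do not rest on them, and were named from markers. There were 498 fibroblast-like cells (164 in COL1, 147 in STIFF, 82 in SOFT and 105 in MATR), 673 basal-like cells (230 in COL1, 186 in STIFF, 77 in SOFT and 180 in MATR), hormone receptor-positive (HR-positive) and receptor-negative (HR-negative) luminal cells, immune-like cells with macrophage markers and 24 endothelial-like cells. In a finer clustering, a basal-like cluster of 498 cells had a median doublet score (a score for more than 1 cell per droplet) of 0.039. Another basal-like cluster, of 194 cells, had a score of 0.312 and also carried receptor-negative luminal markers. Its median was 21115 UMIs, against 10912.5 in the first. Both were kept, and results without the cells of highest doublet score are given in the last section. Cluster 1 carried markers of both luminal lists, and cluster 9 carried receptor-negative luminal, basal and cycling markers, so both were left unnamed, as was cluster 7, which had few UMIs per cell. The median doublet score of cluster 1 was 0.192. It was 0.128 in the endothelial-like cluster and 0.05 to 0.084 in the other clusters compared below. The median depth of cluster 1 was 26863 UMIs. The share of doublets in it was not tested. Levels below are CPM, the usual scaled count, here the UMIs of a gene summed over the cells of a class in a condition relative to all UMIs of those cells. Libraries were made from the 3′ end of transcripts, so counts do not scale with transcript length, and levels of different chains are set side by side. Differences in capture between genes were not measured, so a UMI ratio between chains need not be a ratio of transcripts or of protein.

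The 7 classes compared here leave out the endothelial-like cells, which were too few, and cluster 7. Of the 44 chains, 28 were detected, meaning at least 20 UMIs and a mean of at least 5 CPM over the 4 conditions in some class. Fibroblast-like cells had the highest level of 18 of them and basal-like cells of 9, and cluster 9 had the highest level of Col9a1, a chain of the fibril-associated type IX of cartilage. With the 24 endothelial-like cells included, Col4a1, Col4a2 and Col18a1 would be led by them. The leading class was the same in all 4 conditions for 16 of the 18 fibroblast-led chains and for 6 of the 9 basal-led chains. By family, fibroblast-like cells led 7 of the 8 detected fibrillar chains, 4 of 6 network chains and 3 of 3 type VI chains. Basal-like cells led 4 of the 6 detected fibril-associated chains and the remaining fibrillar and network chains (Col11a1, Col4a5 and Col4a6). The 16 chains that were not detected had between 1 and 255 UMIs over all singlets. They were Col2a1, Col11a2 and Col24a1 among fibrillar chains, Col4a3, Col4a4 and Col10a1 among network chains, Col6a4, Col6a5 and Col6a6, the fibril-associated Col19a1, Col20a1 and Col22a1, the transmembrane Col13a1 and Col25a1, and Col26a1 and Col28a1. Col2a1, the main chain of cartilage fibrils, had 55 UMIs in all and 0 in fibroblast-like cells.

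**Figure D1:**
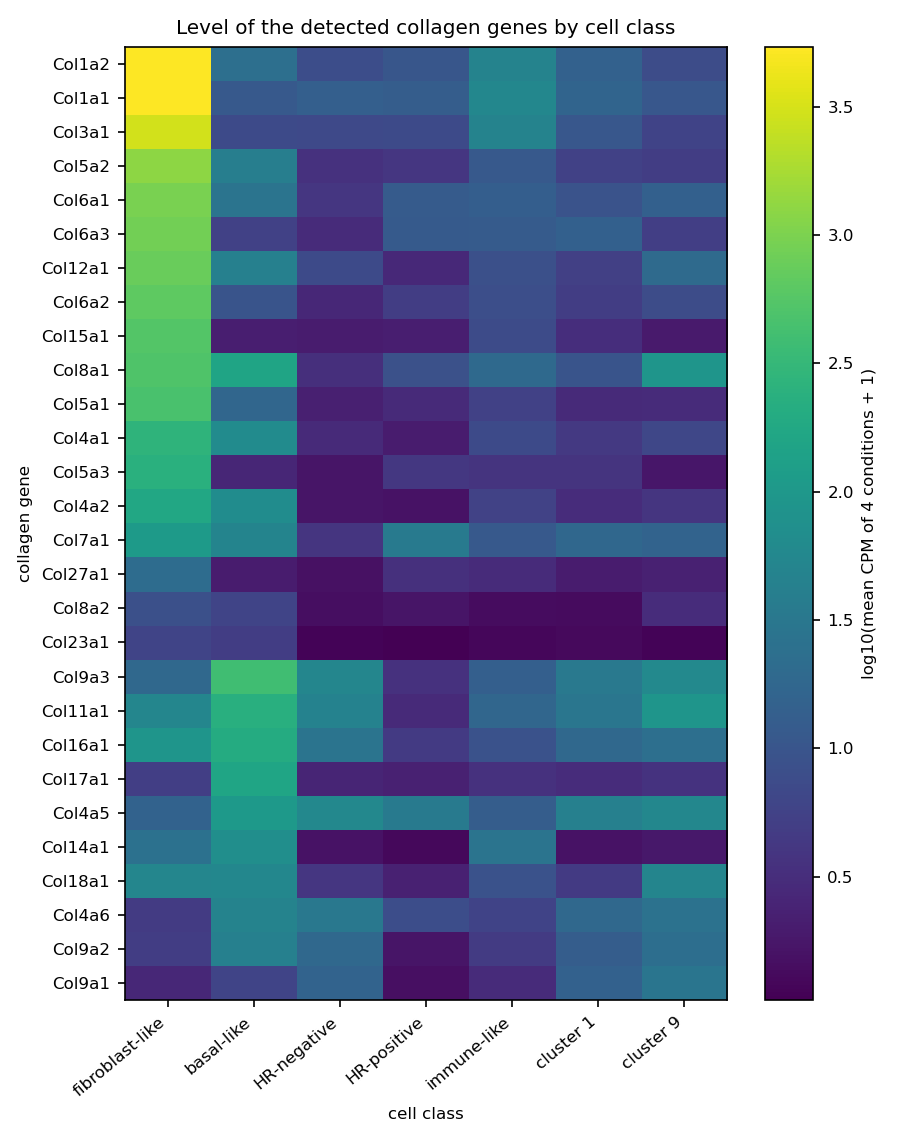
Heat map of the 28 detected collagen genes (rows) in 7 cell classes (columns), coloured by log10 of the mean CPM of the 4 conditions plus 1. The upper 18 rows are brightest in fibroblast-like cells, the next 9 in basal-like cells, and Col9a1 in cluster 9.

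Fibroblast-like cells held most of the collagen message although they were few. They were 10.5% of the cells in COL1, 6.0% in STIFF, 4.22% in SOFT and 4.50% in MATR, and they held 81.6% of the collagen UMIs in COL1, 75.9% in STIFF, 80.9% in SOFT and 77.1% in MATR. Within these cells the 44 chains summed to 19143 CPM in COL1, 19331 in STIFF, 18692 in SOFT and 26481 in MATR. Taken as 1 class, the MATR culture stood above the other 3, which lay close together. Of the finer clusters described below, the one led by fibroblast markers had this order, with 20255 CPM in COL1, 20233 in STIFF, 20484 in SOFT and 31009 in MATR. The pericyte-led one had 17276 CPM in COL1, 17181 in STIFF, 13704 in SOFT and 18681 in MATR. Basal-like cells carried far less, with 1838 CPM in COL1, 1941 in STIFF, 1449.5 in SOFT and 2098 in MATR. The makeup differed as well. Fibrillar chains were 74.7% to 76.3% of collagen UMIs in fibroblast-like cells over the 4 conditions and 16.7% to 19.4% in basal-like cells. Fibril-associated chains were 3.05% to 5.31% in fibroblast-like cells and 39.4% to 44.8% in basal-like cells.

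The chains of type I, the main fibre of connective tissue, led the fibroblast-like cells. Col1a1 had 4695 CPM in COL1, 4636 in STIFF, 4966 in SOFT and 6981 in MATR. Col1a2, its partner in the trimer, had 4656 CPM in COL1, 5091 in STIFF, 4749 in SOFT and 7104 in MATR. Over the whole class both were highest in MATR, and the other 3 conditions lay within a narrow band. In the pericyte-led cluster described below SOFT was lowest, with 3139 CPM of Col1a1 and 3285 of Col1a2. The type I molecule holds more Col1a1 than Col1a2 chains, and the ratio of their UMIs was 0.911 to 1.05 in fibroblast-like cells over the 4 conditions. The same ratio was 0.325 to 0.688 in basal-like cells and 1.71 to 2.03 in HR-negative cells, where both chains were below 30 CPM. Col3a1, of the reticular fibres that accompany type I, had 3167 CPM in COL1, 2816 in STIFF, 2350.1 in SOFT and 3829 in MATR. Its order over the conditions put SOFT lowest and MATR highest. Among the type V chains, which start fibrils, Col5a2 had 1379 CPM in COL1, 1085 in STIFF, 1276 in SOFT and 1287 in MATR, with no excess in MATR. Over the whole class Col5a1 stayed between 432 and 491 CPM and Col5a3 between 212 and 254 CPM. The order of Col5a1 differed between the finer clusters described below. It had 495 CPM in COL1, 507 in STIFF, 540 in SOFT and 577 in MATR in the cluster led by fibroblast markers. In the pericyte-led one it had 325 CPM in COL1, 454 in STIFF, 309 in SOFT and 277 in MATR. Col27a1, a fibrillar chain of developing cartilage, had 18.2 CPM in COL1, 25 in STIFF, 15.6 in SOFT and 22.6 in MATR.

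**Figure D2:**
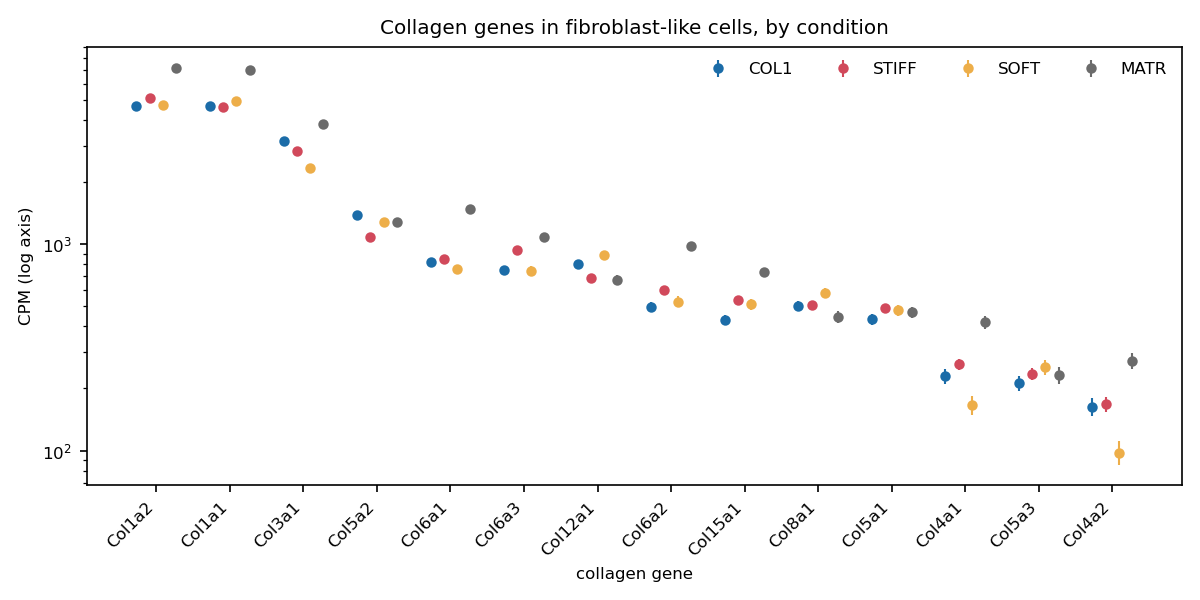
Level (CPM, log axis) of the 14 collagen genes with the highest mean in fibroblast-like cells, for COL1, STIFF, SOFT and MATR, 1 culture each. Points are levels and bars are exact 95% Poisson intervals of the summed UMIs. Col1a2, Col6a1, Col6a2, Col15a1, Col4a1 and Col4a2 are highest in MATR, and Col12a1 and Col8a1 are not.

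The 3 detected type VI chains were, like type I, highest in MATR, at a lower level. Col6a1 had 815 CPM in COL1, 849 in STIFF, 756 in SOFT and 1483 in MATR. Col6a2 had 495 CPM in COL1, 598 in STIFF, 527 in SOFT and 981 in MATR, and Col6a3, the longest chain of the filament, had 749 CPM in COL1, 933 in STIFF, 745 in SOFT and 1088 in MATR. Col6a1 and Col6a2 kept a UMI ratio of 1.42 to 1.65 over the 4 conditions. Col12a1, a fibril-associated collagen of tissues under load, had 799 CPM in COL1, 683 in STIFF, 889.8 in SOFT and 669 in MATR. Over the whole class SOFT was thus highest and MATR lowest, but neither finer cluster described below had this order. In the cluster led by fibroblast markers SOFT was highest at 1089 CPM, with 820 in STIFF and 828 in MATR. In the pericyte-led one SOFT was lowest at 335 CPM, and COL1 had 596. Col15a1, a multiplexin of the zone around basement membranes, had 429.9 CPM in COL1, 538 in STIFF, 512 in SOFT and 731 in MATR. Col8a1, a short-chain network collagen, had 504 CPM in COL1, 507 in STIFF, 581 in SOFT and 446 in MATR, values that differed by less than 1.5-fold over the whole class but not within its finer clusters, and its partner Col8a2 had 6.57 CPM in COL1, 6.03 in STIFF, 12.4 in SOFT and 5.13 in MATR. Col7a1, the anchoring fibril chain, had 91.2 CPM in COL1, 84.7 in STIFF, 106 in SOFT and 153 in MATR.

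Type IV chains come in gene pairs that lie head to head, and the pairs differed in the class with the highest mean. Col4a1 and Col4a2, which form the common basement membrane network, were highest in fibroblast-like cells among the 7 classes, and Col4a5 and Col4a6, which form a network restricted to some basement membranes, had their highest mean in basal-like cells. In SOFT, however, cluster 9 had 71.8 CPM of Col4a5 against 69.4 in basal-like cells, and HR-negative cells had 33.2 CPM of Col4a6 against 31.6 in basal-like cells. The windows around the RefSeq transcript starts (300 bases, 250 before the start and 50 from it, GRCm38.p6, the assembly behind mm10) are shown because the members of a pair share or neighbour a promoter and their levels can be compared. RefSeq windows were found for 35 of the 44 chains. The Col4a1 window lay at chr8:11312777-11313076, minus strand, and that of Col4a2 at chr8:11312555-11312854, plus strand. The starts used were 21 bases apart, on opposite strands with the transcripts overlapping at their first bases, and the windows shared 78 bases. The Col4a5 window lay at chrX:141475169-141475468, plus strand, and that of Col4a6 at chrX:141474027-141474326, minus strand, with the starts used 1343 bases apart and no shared base. Only 1 window per gene was taken. The RefSeq gene bounds reach beyond these starts for Col4a1 (to 11312889), Col4a5 (from 141475370) and Col4a6 (to 141474095), so other starts would give other distances. Each sequence runs 5′ to 3′ on the strand of its gene, and capitals mark CCAAT and GGGCGG in either orientation (ATTGG and CCGCCC on the other strand).
Col4a1: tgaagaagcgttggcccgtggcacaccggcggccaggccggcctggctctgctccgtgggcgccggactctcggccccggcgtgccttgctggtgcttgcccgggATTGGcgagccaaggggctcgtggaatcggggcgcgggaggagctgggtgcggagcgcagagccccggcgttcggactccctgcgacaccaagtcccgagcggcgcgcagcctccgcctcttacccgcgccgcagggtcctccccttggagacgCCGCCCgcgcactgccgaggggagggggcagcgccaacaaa
Col4a2: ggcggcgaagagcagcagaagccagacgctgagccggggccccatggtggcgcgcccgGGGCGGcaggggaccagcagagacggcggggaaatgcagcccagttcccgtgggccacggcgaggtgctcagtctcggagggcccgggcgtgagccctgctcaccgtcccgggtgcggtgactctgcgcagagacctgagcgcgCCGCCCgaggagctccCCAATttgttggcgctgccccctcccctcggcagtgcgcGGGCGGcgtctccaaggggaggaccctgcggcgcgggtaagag
Col4a5: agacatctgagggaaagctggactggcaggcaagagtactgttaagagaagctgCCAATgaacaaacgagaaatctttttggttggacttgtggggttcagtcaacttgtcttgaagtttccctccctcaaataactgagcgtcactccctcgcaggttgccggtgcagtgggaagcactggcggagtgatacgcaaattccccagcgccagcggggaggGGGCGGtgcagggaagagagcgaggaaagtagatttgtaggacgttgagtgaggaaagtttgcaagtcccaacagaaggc
Col4a6: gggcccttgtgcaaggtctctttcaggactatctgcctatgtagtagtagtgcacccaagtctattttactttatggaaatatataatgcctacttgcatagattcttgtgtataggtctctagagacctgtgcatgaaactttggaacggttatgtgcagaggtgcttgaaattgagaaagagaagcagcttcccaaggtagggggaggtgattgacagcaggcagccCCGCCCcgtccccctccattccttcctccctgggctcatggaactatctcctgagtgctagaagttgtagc
The CCAAT letters occurred 1 time in the windows of Col4a1, Col4a2 and Col4a5 and 0 times in that of Col4a6. The GGGCGG letters occurred 3 times in the Col4a2 window and 1 time in each of the other 3, and TATAAA, also searched on both strands, in none. Of the 35 collagen windows, 12 held CCAAT, 22 held GGGCGG and 5 held TATAAA, against 37.4%, 35.7% and 13.6% of all 32851 RefSeq windows of this length. G and C made up 74.0% of the Col4a1 window and 73.7% of the Col4a2 window, and 52.7% and 48.3% of the Col4a5 and Col4a6 windows. These are letters in a window, and binding was not measured.

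In fibroblast-like cells Col4a1 had 229 CPM in COL1, 262 in STIFF, 166 in SOFT and 418 in MATR. Col4a2 had 163 CPM in COL1, 168 in STIFF, 97.8 in SOFT and 272 in MATR. Over the whole class both chains were lowest in SOFT and highest in MATR. For both chains the SOFT and MATR intervals overlapped that of no other condition. Within the finer clusters described below MATR stayed highest, but COL1 was the lowest in the cluster led by fibroblast markers. There Col4a1 had 99.2 CPM in COL1 and 124 in SOFT, and Col4a2 had 59.2 CPM in COL1 and 71.8 in SOFT. The UMI ratio of Col4a1 to Col4a2 was 1.41 to 1.70 in fibroblast-like cells and 0.875 to 1.18 in basal-like cells. In basal-like cells Col4a1 had 72.2 CPM in COL1, 69.7 in STIFF, 43.2 in SOFT and 72.7 in MATR, and Col4a2 had 78.1 CPM in COL1, 59.2 in STIFF, 49.3 in SOFT and 81.2 in MATR, so SOFT was again the lowest. Col4a5 had 123 CPM in COL1, 104 in STIFF, 69.4 in SOFT and 115 in MATR in basal-like cells, and Col4a6 had 50.7 CPM in COL1, 49.2 in STIFF, 31.6 in SOFT and 58.7 in MATR. The ratio of Col4a5 to Col4a6 was 1.97 to 2.42 in basal-like, 1.48 to 2.21 in HR-negative and 4.49 to 5.18 in HR-positive cells, so the X-linked pair was less balanced in the HR-positive class in all 4 conditions.

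The fibroblast-like class was not uniform. A finer clustering, also without collagen genes, split it into a cluster of 294 cells led by fibroblast markers and a cluster of 204 cells that stayed unnamed. In it the markers of pericytes, the contractile cells around small vessels, had the largest excess over other clusters, with basal markers as a rival list, and it is called pericyte-led here only for that. Its top genes by fold were Sparc, Bgn, Mgp, Rarres2, Serping1, Mfap5, Tagln, Fstl1, Serpinf1 and Acta2. Fibroblast markers summed to 2300.5 CPM in COL1, 2453 in STIFF, 1934 in SOFT and 2357 in MATR in that cluster and basal markers to 2008 CPM in COL1, 2422 in STIFF, 1575 in SOFT and 1323 in MATR. Pericyte markers summed to 1102 CPM in COL1, 748 in STIFF, 925 in SOFT and 1489 in MATR in the pericyte-led cluster, against 271, 291, 319.7 and 368 CPM in the fibroblast-led cluster in the same order of conditions. Over the 4 conditions together, Col4a1 had 469 CPM in the pericyte-led cluster and 165 CPM in the fibroblast-led one, a ratio of 2.84. Col4a2 had 305 and 108 CPM (ratio 2.82), and Col18a1, a multiplexin of basement membranes whose end piece is endostatin, had 104 and 28.3 CPM (ratio 3.66). These 3 basement membrane chains were higher in the pericyte-led cluster in 4 of 4 conditions. The anchoring fibril chain Col7a1 and the fibril-associated Col14a1 and Col12a1 went the other way, while the fibril-associated Col9a3 (ratio 1.12, 95% interval 0.822 to 1.51) did not. Col7a1 had 27.6 CPM in the pericyte-led cluster and 139.9 CPM in the fibroblast-led one, Col14a1 had 7.79 and 34.4 CPM, and Col12a1 had 430.2 and 906 CPM, each lower in 4 of 4 conditions. Col1a1 (ratio 0.686) and Col6a1 (ratio 0.473) were also lower in the pericyte-led cluster, while Col3a1 (ratio 1.11) and Col6a3 (ratio 0.967) were near equal. These ratios set clusters of the same cultures against each other and carry no test. The 24 endothelial-like cells, with 260512 UMIs in all, had a yet higher level of the same chains, with 1478 CPM of Col4a1 (95% interval 1334 to 1633), 791 CPM of Col4a2 and 299 CPM of Col18a1, and 11.5 CPM of Col1a1 from 3 UMIs.

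**Figure D3:**
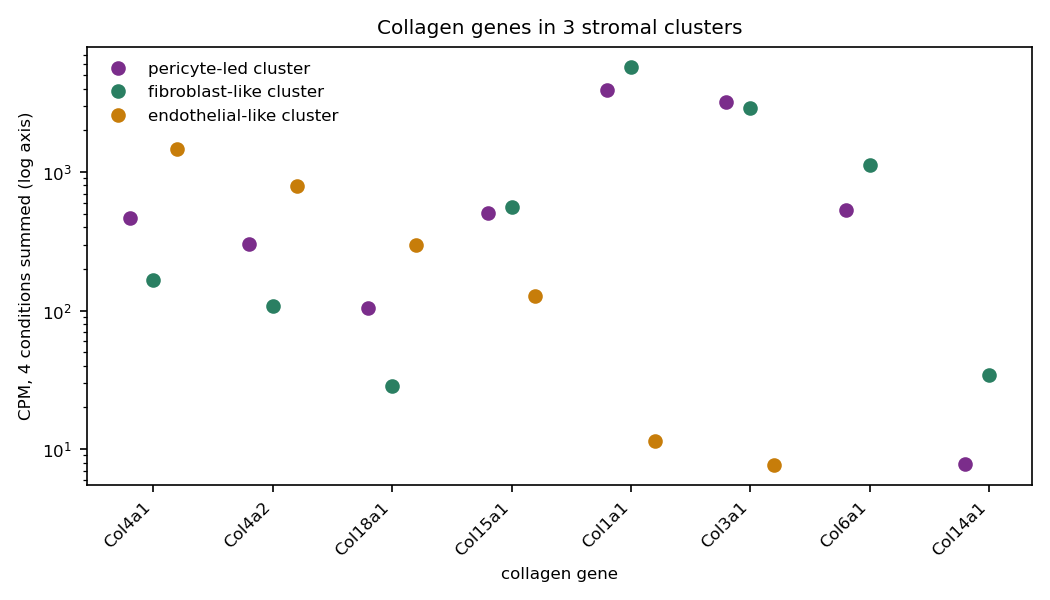
Level (CPM over the 4 conditions together, log axis) of 8 collagen genes in the pericyte-led cluster, the fibroblast-like cluster led by fibroblast markers, and the endothelial-like cluster. Points are levels without error bars. Col4a1, Col4a2 and Col18a1 increase in the order fibroblast, pericyte-led, endothelial-like, and Col1a1, Col6a1 and Col14a1 are highest in the fibroblast cluster; a gene with 0 UMIs has no point.

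Basal-like cells, the myoepithelial layer that lies on the basement membrane, had a collagen set different from that of fibroblast-like cells. It was shared in part with other classes. Mean Col11a1 was 2.50 times and mean Col9a2 1.92 times that of cluster 9, and mean Col16a1 2.28 times that of fibroblast-like cells. Col8a1 was higher in fibroblast-like cells, with a mean of 509 CPM against 154. Col9a3, a chain of the fibril-associated type IX, led with 364 CPM in COL1, 468 in STIFF, 301 in SOFT and 419 in MATR. Col11a1, a fibril-starting chain best known from cartilage, had 220.4 CPM in COL1, 219.9 in STIFF, 172 in SOFT and 293 in MATR. The fibril-associated Col16a1 had 199.6 CPM in COL1, 212 in STIFF, 157 in SOFT and 244 in MATR. Col17a1, the transmembrane collagen of hemidesmosomes, which fix epithelial cells to the basement membrane, had 137 CPM in COL1, 177 in STIFF, 129 in SOFT and 195 in MATR, and its mean was 38.8 times that of the next class. SOFT was the lowest condition for all 4 of these chains. Col8a1 had 167 CPM in COL1, 116 in STIFF, 173 in SOFT and 160.3 in MATR, with STIFF lowest. Col14a1, a fibril-associated chain, had 68.3 CPM in COL1, 73.9 in STIFF, 50.9 in SOFT and 92.5 in MATR, and Col9a2 had 41.9 CPM in COL1, 53.9 in STIFF, 27.7 in SOFT and 48.1 in MATR. Type IX is a trimer of 3 different chains in cartilage, and its other member Col9a1 was near the bottom in basal-like cells, with 5.63 CPM in COL1, 8.15 in STIFF, 2.31 in SOFT and 4.09 in MATR. The UMI ratio of Col9a3 to Col9a1 was 57.4 to 130 in basal-like cells and 3.13 to 4.60 in HR-negative cells. Col18a1 was of like size in both classes in COL1 and STIFF, higher in basal-like cells in SOFT and lower in MATR, with 58.1 CPM in COL1, 57.9 in STIFF, 56.3 in SOFT and 43.7 in MATR in basal-like cells and 58.3 CPM in COL1, 55.7 in STIFF, 31.7 in SOFT and 62.6 in MATR in fibroblast-like cells. The fibre chains of the fibroblast-like cells were at 0.0656% to 0.548% of their fibroblast-like level in basal-like cells for Col1a1, Col1a2 and Col3a1. Free RNA gives UMIs in cells that do not express a gene, and in HR-positive cells the same 3 chains were at 0.120% to 0.267%. Col5a2 at 2.73% to 3.73% and Col12a1 at 3.64% to 7.67% were above that in basal-like cells, against 0.201% to 0.311% and 0.202% to 0.266% in HR-positive cells.

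**Figure D4:**
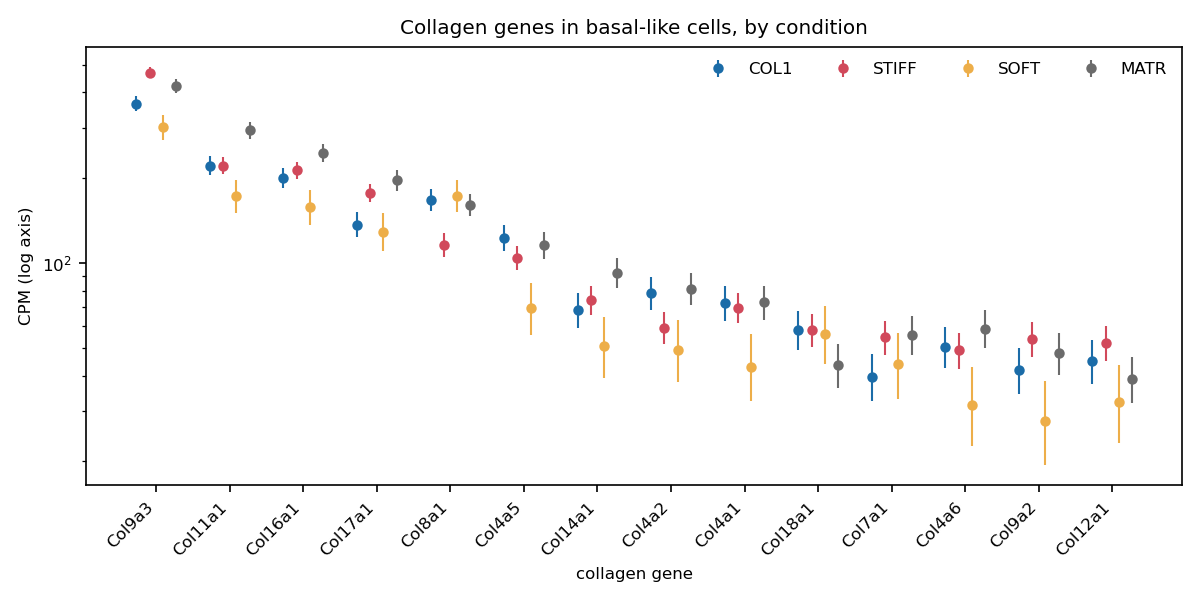
Level (CPM, log axis) of the 14 collagen genes with the highest mean in basal-like cells, for COL1, STIFF, SOFT and MATR, 1 culture each. Points are levels and bars are exact 95% Poisson intervals. SOFT, with 77 basal-like cells, has the lowest point for Col9a3, Col11a1, Col16a1, Col17a1, Col4a5 and Col14a1.

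In HR-positive cells, Col7a1 had 33.2 CPM in COL1, 25.8 in STIFF, 42 in SOFT and 34.4 in MATR, and Col4a5 had 37.8 CPM in COL1, 35.0 in STIFF, 34.0 in SOFT and 27.8 in MATR, the highest 2 chains of that class. In HR-negative cells Col4a5, Col9a3 and Col11a1 had the highest means of the 4 conditions, in an order that changed between conditions. Col4a5 had 58.7 CPM in COL1, 56.2 in STIFF, 52.0 in SOFT and 51.9 in MATR, Col9a3 had 49.0 CPM in COL1, 62.9 in STIFF, 43.6 in SOFT and 53.2 in MATR, and Col11a1 had 49.6 CPM in COL1, 53.3 in STIFF, 31.4 in SOFT and 47.0 in MATR. Some chains differed between the HR-positive clusters. Col6a3 had 3.99 CPM in SOFT and 21.3 CPM in MATR over all HR-positive cells, and within the cluster marked by Krt4 and Krt78 it had 8.31 CPM in SOFT and 28.4 CPM in MATR. Col8a1 had 17.9 CPM in STIFF and 3.45 CPM in SOFT over all HR-positive cells, and within the cluster marked by Klk1b27 and Defb14 28.2 CPM in STIFF and 16.6 CPM in SOFT. That cluster held 645 HR-positive cells in STIFF and 73 in SOFT, so the HR-positive levels of Col8a1 also follow the mix of clusters. Cluster 9, with basal and luminal markers, had Col9a1 at 24.7 CPM in COL1, 24.4 in STIFF, 16.5 in SOFT and 46.9 in MATR, Col11a1 at 98.3 CPM in COL1, 88.0 in STIFF, 66.2 in SOFT and 110.2 in MATR and Col8a1 at 135 CPM in COL1, 71.4 in STIFF, 96.8 in SOFT and 54.8 in MATR.

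In immune-like cells Col14a1 stood apart from the fibre chains. It had 27.4 CPM in COL1, 15.8 in STIFF, 41.0 in SOFT and 25 in MATR there. Expressed as a share of the fibroblast-like level in the same condition, that was 44.6% to 470.2%, while Col1a1 was 0.203% to 1.62%, Col3a1 0.358% to 3.12% and Col6a1 0.445% to 2.66%. In fibroblast-like cells Col14a1 had 20.1 CPM in COL1, 35.4 in STIFF, 8.73 in SOFT and 34.9 in MATR, so SOFT was the lowest condition there and the highest in immune-like cells. A UMI of Col14a1 was found in 32.4% of immune-like cells in COL1, 23.7% in STIFF, 42.6% in SOFT and 27.5% in MATR. After thinning each cell to 5000 UMIs these shares were 13.6%, 8.71%, 15.1% and 12.8% in the same order, and between 4 and 5 shallower cells per condition were left out. Col14a1 was at 1.12% to 3.44% of its fibroblast-like level in HR-negative cells and at 0% to 2.96% in HR-positive cells. The comparison planned was the class with the lowest share in these data, which is no independent background, and HR-positive cells were used. Their unthinned share was 0.755% in COL1 and 0.461% in STIFF. It was 0 of 1021 cells in SOFT, which allows a share of up to 0.361% (exact 95% limit), and 0.241% in MATR. The median depth was 13753 to 18161 UMIs in immune-like cells and 10360.5 to 12971 in HR-positive cells.

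**Figure D5:**
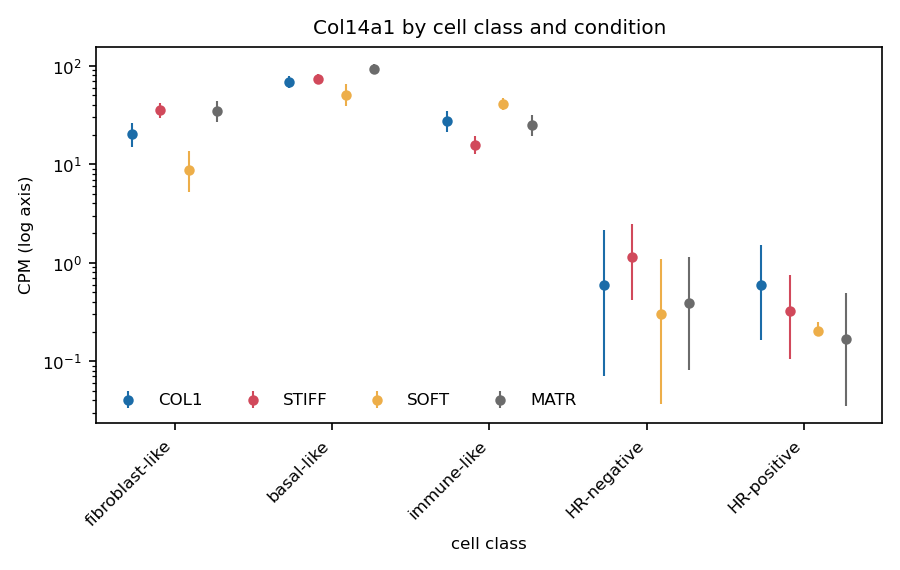
Level of Col14a1 (CPM, log axis) in 5 cell classes for COL1, STIFF, SOFT and MATR, 1 culture each, with exact 95% Poisson intervals. Basal-like, fibroblast-like and immune-like cells lie above 8 CPM and luminal cells near or below 1 CPM; in SOFT, HR-positive cells had 0 UMIs and the point is drawn at the level of 3 UMIs.

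Conditions were then compared within fibroblast-like cells, where a chain counts as measured if the pair of cultures gave it 20 UMIs or more in sum and either of them 5 CPM or more, and as different at 1.5-fold or more. The 4 comparisons share cultures, so their values are given side by side and are not independent. In COL1 over MATR, 2 of 24 measured chains were higher and 8 lower, against 7.0% of all measured genes higher and 9.82% lower. The 8 were Col6a2, 1.98-fold lower (95% interval 1.85 to 2.13), Col6a1, 1.82-fold lower (95% interval 1.72 to 1.92), Col4a1, 1.82-fold lower (95% interval 1.64 to 2.03), and Col4a2, Col15a1, Col7a1, Col14a1 and Col1a2, 1.53- to 1.74-fold lower. The 2 that were higher are chains of the basal-like set. Col9a3 had 35.5 CPM in COL1 and 5.64 in MATR, and Col17a1 had 7.34 CPM in COL1 from 19 UMIs and 2.05 in MATR from 4. The basal markers in fibroblast-like cells were 1852 CPM in COL1, 1875 in STIFF, 1773 in SOFT and 1299 in MATR (9 genes, of which 2 were at 0 in SOFT), and their part in these values was not tested. The count of 10 was 16 under the margin tag rule. In SOFT over MATR, within 1 channel, 1 of 23 chains was higher and 7 lower, against 7.27% and 10.5% of all measured genes. Col4a2 was 2.78-fold lower (95% interval 2.37 to 3.28), Col4a1 2.52-fold lower (95% interval 2.22 to 2.85) and Col18a1 1.98-fold lower (95% interval 1.46 to 2.69). Col14a1 was 4.0-fold lower (95% interval 2.38 to 7.04), Col6a1 1.96-fold lower, Col6a2 1.86-fold lower and Col3a1 1.63-fold lower, and Col8a2 was the 1 chain that was higher, at 2.42-fold. The median log2 ratio of the measured chains was -0.29 in COL1 over MATR and -0.53 in SOFT over MATR, beside -0.05 and -0.04 over all measured genes.

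The type IV and type VI differences were also looked at within the finer clusters, a choice made after seeing the data. In the fibroblast-led cluster Col4a1 had 124 CPM in SOFT and 285 in MATR, and in the pericyte-led cluster 285 in SOFT and 648 in MATR. Col6a1 had 905 CPM in SOFT and 1938 in MATR in the fibroblast-led cluster, and 342 in SOFT and 699 in MATR in the pericyte-led one. SOFT over MATR thus pointed the same way in both clusters for both chains. Col3a1 was 1.89-fold lower in SOFT than in MATR in the fibroblast-led cluster and 1.18-fold lower in the pericyte-led one. Col8a1 went opposite ways, with 660.0 CPM in SOFT and 316 in MATR in the fibroblast-led cluster, and 362 in SOFT and 671 in MATR in the pericyte-led one. Its COL1 over MATR ratio was likewise 1.75 in the fibroblast-led and 0.630 in the pericyte-led cluster. The chains called lower in COL1 over MATR were mostly nearer to 1 in the pericyte-led cluster. There Col6a1 was 1.30-fold lower, Col15a1 1.30, Col4a1 1.45, Col4a2 1.20 and Col1a2 1.17, all under 1.5-fold. Col6a2 was 1.59-fold lower there, and Col7a1 1.71-fold lower from 15 UMIs in COL1 and 19 in MATR. Col14a1, with 5 UMIs in COL1 and 5 in MATR, was not measured there. In the fibroblast-led cluster the same values were 1.97-fold lower for Col6a1, 1.92 for Col15a1, 3.32 for Col4a2, 1.68 for Col1a2, 2.10 for Col6a2 and 1.67 for Col7a1. Col4a1 had 99.2 CPM in COL1 and 285 in MATR in the fibroblast-led cluster, and 448 in COL1 and 648 in MATR in the pericyte-led one. Col1a1 had 5089 CPM in COL1 and 8586 in MATR in the fibroblast-led cluster, and 4034 in COL1 and 4217 in MATR in the pericyte-led one, where the levels nearly met. The pericyte-led cluster was 77 cells of 164 fibroblast-like cells in COL1, 52 of 147 in STIFF, 25 of 82 in SOFT and 50 of 105 in MATR.

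Over the whole class STIFF and SOFT fibroblast-like cells had nearly the same collagen total, and COL1 and STIFF also. In the pericyte-led cluster the total was 17181 CPM in STIFF and 13704 in SOFT. In STIFF over SOFT, 11 of 28 measured chains were higher and 1 lower, against 11.0% and 5.92% of all measured genes. The count of 12 was 7 when 50 UMIs were required. Basement membrane chains were among the 11, with Col4a1 1.57-fold higher (95% interval 1.39 to 1.78), Col4a2 1.71-fold higher (95% interval 1.46 to 2.01) and Col18a1 1.76-fold higher (95% interval 1.33 to 2.34). Within the fibroblast-led cluster the ratios were 1.42 for Col4a1, 1.66 for Col4a2 and 2.92 for Col18a1. The pericyte-led cluster gave 1.64 for Col4a1, 1.66 for Col4a2 and 1.22 for Col18a1 (95% interval 0.865 to 1.73). Col14a1 was 4.05-fold higher (95% interval 2.49 to 6.95), and Col27a1 1.60-fold higher (95% interval 1.07 to 2.44). Another 5 belong to the basal-like set, namely Col9a3, 3.50-fold higher (95% interval 1.97 to 6.67), Col17a1, with 24 UMIs in STIFF and 1 in SOFT (ratio 14.3, 95% interval 2.34 to 589), Col9a2, with 5.79 CPM in COL1, 7.13 in STIFF, 1.84 in SOFT and 1.03 in MATR, Col4a5, with 13.5 CPM in COL1, 19.7 in STIFF, 11.0 in SOFT and 12.8 in MATR, and Col4a6, with 3.48 CPM in COL1, 6.86 in STIFF, 2.76 in SOFT and 1.54 in MATR. Pan-luminal markers in fibroblast-like cells were 1533 CPM in COL1, 3184 in STIFF, 1722 in SOFT and 2134 in MATR (4 genes, 0 of them at 0). Immune markers were 749 CPM in COL1, 377 in STIFF, 1698 in SOFT and 192 in MATR (9 genes, 2 at 0), and the part of such cells in the values was not tested. Col23a1, a transmembrane chain, had 1.16 CPM in COL1, 10.7 in STIFF, 3.22 in SOFT and 5.13 in MATR. Col8a2 was 2.06-fold lower (95% interval 1.13 to 3.79). In COL1 over STIFF, within the other channel, 1 of 28 chains was higher and 4 lower, against 6.27% and 11.7% of all measured genes. The chain that was higher was Col9a3, at 1.58-fold, and its ratio turned below 1 under the relative tag rule. The 4 were Col14a1, 1.76-fold lower (95% interval 1.27 to 2.48), Col23a1, with 3 UMIs in COL1 and 39 in STIFF (9.23-fold lower, 95% interval 2.93 to 46.7), Col4a6, with 9 UMIs in COL1 and 25 in STIFF (turned above 1 under the margin tag rule), and Col10a1, a network chain known from hypertrophic cartilage, with 1.54 CPM in COL1, 7.13 in STIFF, 5.51 in SOFT and 2.57 in MATR. Col10a1 is among the chains called not detected above, and its UMIs were few. The pericyte-led cluster had 1 in COL1 and 19 in STIFF, and the fibroblast-led one 3 in COL1 and 7 in STIFF.

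In basal-like cells the collagens set SOFT apart. In STIFF over SOFT, 11 of 22 measured chains were higher and Col8a2 lower, against 12.4% and 7.37% of all measured genes. In SOFT over MATR, 0 of 23 chains were higher and 14 lower, against 7.3% and 10.5%. The SOFT culture held 77 basal-like cells, and both comparisons rest on them. The STIFF over SOFT count of 12 was 7 under both other tag rules and 4 with 10 CPM added. Among the leading chains, Col11a1 was 1.71-fold lower (95% interval 1.47 to 1.98) in SOFT than in MATR, Col16a1 1.55-fold lower (95% interval 1.33 to 1.82) and Col17a1 1.52-fold lower (95% interval 1.28 to 1.82). Col4a5 was 1.5-fold higher (95% interval 1.19 to 1.91) in STIFF than in SOFT, Col9a3 1.56-fold higher (95% interval 1.40 to 1.74) and Col9a2 1.94-fold higher (95% interval 1.36 to 2.85). Basal markers in these cells were 5000.1 CPM in COL1, 6687 in STIFF, 5009.7 in SOFT and 5952 in MATR, and pan-luminal markers 2841 CPM in COL1, 4646 in STIFF, 5109.9 in SOFT and 4252 in MATR. Receptor-negative luminal markers were 8205 CPM in COL1, 6795 in STIFF, 4997 in SOFT and 7038 in MATR. SOFT was thus highest in the pan-luminal list and lowest in the receptor-negative one, and the part of luminal RNA in the SOFT values was not tested. Some chains led by fibroblast-like cells were also lowest in SOFT in basal-like cells, while Col8a1 and Col8a2 were highest there. Col1a2 had 24.6 CPM in COL1, 27.9 in STIFF, 12.3 in SOFT and 27.3 in MATR, Col6a1 23.2 CPM in COL1, 33.1 in STIFF, 19.3 in SOFT and 33.8 in MATR, Col6a2 8.10 CPM in COL1, 12.1 in STIFF, 3.08 in SOFT and 10.9 in MATR, and Col5a1 20.1 CPM in COL1, 16.3 in STIFF, 8.48 in SOFT and 21.5 in MATR. Col12a1 had 45.1 CPM in COL1, 52.3 in STIFF, 32.4 in SOFT and 38.9 in MATR. Of the 14 chains lower in SOFT than in MATR, Col3a1, with 2 UMIs in SOFT, turned to near 1 under the relative tag rule. In COL1 over MATR, 2 of 25 chains were higher and 0 lower, against 6.19% and 5.98% of all measured genes. They were Col1a1, with 14.1 CPM in COL1, 10.0 in STIFF, 8.48 in SOFT and 8.87 in MATR, and Col3a1, with 12 CPM in COL1, 5.0 in STIFF, 1.54 in SOFT and 6.48 in MATR, beside 11.3 to 13.2 CPM of Col1a1 and 5.40 to 6.88 CPM of Col3a1 in HR-positive cells. The Col1a1 ratio turned below 1 under both other tag rules. In COL1 over STIFF, 3 of 24 were higher and 0 lower, against 5.69% and 7.53%. These were Col3a1, Col23a1, with 5.98 CPM in COL1, 2.10 in STIFF, 3.85 in SOFT and 4.09 in MATR, and Col8a2, with 5.28 CPM in COL1, 3.42 in STIFF, 6.16 in SOFT and 5.46 in MATR, each from fewer than 35 UMIs per condition, and the Col3a1 ratio turned below 1 under the margin tag rule.

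Over all singlets 11 of 25 measured chains were higher and 0 lower in COL1 over MATR, against 7.11% and 1.72% of all measured genes. Of 25 chains, 10 were higher and 0 lower in STIFF over SOFT, against 3.8% and 2.64%, and of 25, 7 and 0 in COL1 over STIFF, against 3.26% and 1.4%. In SOFT over MATR 2 of 25 were higher and 8 lower, against 4.23% and 2.49%. The collagen total was 2589 CPM in COL1, 1766 in STIFF, 1351 in SOFT and 1527 in MATR. COL1 was 1.70-fold MATR (95% interval 1.68 to 1.71), while within fibroblast-like cells it was 0.723-fold (0.714 to 0.732). The sign of the comparison thus turned between the whole culture and the class that held most of the message, and COL1 had the largest share of fibroblast-like cells (above). STIFF was 1.31-fold SOFT over all singlets and 1.03-fold within fibroblast-like cells, COL1 was 1.47-fold and 0.99-fold STIFF, and SOFT was 0.884-fold (just above 1 under both other tag rules) and 0.706-fold MATR. In basal-like cells the 4 ratios were 0.876 for COL1 over MATR, 1.34 for STIFF over SOFT, 0.947 for COL1 over STIFF and 0.691 for SOFT over MATR. In immune-like cells STIFF was 2.90-fold SOFT, with 23 of 24 measured chains higher in STIFF and Col14a1 lower, against 21.7% of all measured genes higher and 4.24% lower. Pan-luminal markers in immune-like cells were 2534 CPM in COL1, 5768 in STIFF, 1716 in SOFT and 3553 in MATR, fibroblast markers 385 CPM in COL1, 439 in STIFF, 179 in SOFT and 290.5 in MATR. Basal markers were 175 CPM in COL1, 249 in STIFF, 41.9 in SOFT and 162 in MATR, and the part of RNA from other cells in these values was not tested.

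Collagen is modified in the cell and assembled and crosslinked outside it, and lists of the genes for these steps and of collagen receptors were compared in the same way. Fibroblast-like cells had 1497 CPM in COL1, 1327 in STIFF, 1521 in SOFT and 1594 in MATR of Serpinh1, the collagen chaperone. Basal-like cells had 346 CPM in COL1, 289 in STIFF, 288 in SOFT and 319 in MATR. The crosslinking enzyme Lox had 629.9 CPM in COL1, 439 in STIFF, 721 in SOFT and 546 in MATR in fibroblast-like cells, and the propeptide protease enhancer Pcolce had 588 CPM in COL1, 473 in STIFF, 511 in SOFT and 626 in MATR. Of the discoidin domain receptors, which bind collagen, Ddr2 was a fibroblast-like gene, with 30.9 CPM in COL1, 38.4 in STIFF, 38.6 in SOFT and 53.4 in MATR, while Ddr1 was highest in basal-like cells, with 67.6 CPM in COL1, 69.7 in STIFF, 55.5 in SOFT and 67.9 in MATR. Within fibroblast-like cells, 0 of 17 measured intracellular genes were 1.5-fold higher or lower in COL1 over MATR, where 7.0% and 9.82% of all measured genes were higher and lower. The count was also 0 of 17 in SOFT over MATR, where the shares were 7.27% and 10.5%. Under the relative tag rule the counts in these comparisons were 2 and 1. In STIFF over SOFT 0 of 17 were higher and 1 lower, against 11.0% and 5.92%, and in COL1 over STIFF 3 were higher and 0 lower, against 6.27% and 11.7%. The genes with the highest and lowest ratios are named for each comparison. In COL1 over MATR these were Pcolce2 at 2.02-fold, Plod2, a lysyl hydroxylase, at 1.47 and Itgb1 at 1.45, and Ddr2 at 0.579, the integrin chain Itga1 at 0.595 and the propeptide protease Adamts2 at 0.631. In SOFT over MATR they were Pcolce2 at 1.62-fold, Lox at 1.32 and Plod2 at 1.30, and Itga1 at 0.593, Adamts2 at 0.668 and Ddr2 at 0.723. STIFF over SOFT gave Ddr1 at 1.58-fold, Adamts14 at 1.57 and Mia3 at 1.15, and Plod2 at 0.603, Lox at 0.608 and Itga11 at 0.637. COL1 over STIFF gave Itga11, an integrin chain that binds collagen, at 1.94-fold, Plod2 at 1.87 and Pcolce2 at 1.78, and Adamts14 at 0.201, Ddr1 at 0.666 and Ddr2 at 0.805.

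The same lists were compared in basal-like cells. In COL1 over STIFF, 3 of 5 measured extracellular genes were higher, namely Lox at 3.35-fold, Loxl3 at 2.19 and Loxl2 at 1.85, all at or below 10.6 CPM, against 5.69% of all measured genes higher. Under the relative tag rule this count of 3 was 1. P4ha2, a prolyl hydroxylase subunit, had 43.6 CPM in COL1, 22.4 in STIFF, 62.4 in SOFT and 38.9 in MATR, so it was 1.95-fold in COL1 over STIFF, 0.358-fold in STIFF over SOFT and 1.60-fold in SOFT over MATR. SOFT was thus the highest condition for this enzyme and the lowest for most chains of these cells. The 3 highest and 3 lowest ratios of the 4 comparisons were as follows. In COL1 over MATR the highest were P3h2 at 2.80, Lox at 2.21 and Loxl2 at 1.5, and the lowest P3h3 at 0.822, Ppib at 0.823 and Crtap at 0.844. In STIFF over SOFT the highest were Itga11 at 2.39, Pcolce at 2.10 and P3h1 at 1.48, and the lowest P4ha2 at 0.358, Loxl3 at 0.417 and Lox at 0.512. In COL1 over STIFF the highest were Lox at 3.35, Loxl3 at 2.19 and P4ha2 at 1.95, and the lowest P3h3 at 0.696, Itga11 at 0.765 and Crtap at 0.877. In SOFT over MATR the highest were P4ha2 at 1.60, Plod3 at 1.46 and Lox at 1.29, and the lowest Pcolce at 0.416, Itga1 at 0.461 and Itga11 at 0.488.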

How the data were processed

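The data are single-cell libraries of 4 mouse mammary organoid cultures in 2 pools. The values are raw UMI counts, not normalized, in matrices that the authors made with Cell Ranger, per the file headers, and deposited. Cell Ranger 5.0.0, the mm10 build and Seurat 4.2.0 were listed, per the submitters' processing notes. How the authors chose barcodes, and which of the chemistry versions in the labels' protocols applied, is not given in the sources used here. Each pool was deposited as 2 entries with identical gene counts, and 1 was used.

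Kept barcodes (90.1% and 90.6%) had 1000 UMIs or more from 500 genes or more, with a mitochondrial share of up to 15%. Hashtags were called with HTODemux of Seurat 5.3.0 (R 4.3.3, quantile 0.99). Barcodes with both tags (305 and 277) were left out. Scrublet marked 0 and 754 cells and was not used as a filter. Cells were clustered with scanpy 1.11.5 (2000 variable genes, none a collagen, 30 components, 15 neighbours, Leiden resolution 0.5), and clusters took the name of the leading marker list, with at least 3 markers at 20 CPM and 2-fold. UMIs were summed per class and condition. Levels have exact Poisson, ratios conditional binomial and shares Clopper-Pearson 95% intervals (scipy 1.17.1), which cover counting error only, and a count of 0 was set at 3 in a ratio. The procedure was run on simulated counts with Poisson error only. They hold no variation between cells or cultures, so the run cannot show how the intervals fare under it. Members, lists and markers were chosen with earlier results of these data known. Chains with the highest level in fibroblast-like and basal-like cells (up to 8 each) and those at least 1.5-fold different there were given by condition, and of the other genes the 3 highest and lowest ratios. Alternatives were other tag rules, clusterings, filters, a pseudocount and scaling by trimmed mean of M-values. RefSeq supplied the promoter windows.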

Additional observations from a re-analysis of the deposited data

Results flagged for a closer look

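Some chains were at least 1.5-fold higher in 1 cell class and at least 1.5-fold lower in another under the same pair of cultures. With 1 culture per condition the difference was not tested in any of these cases, and each is given as the difference of the log2 ratios of the 2 classes. Col14a1 showed it most often. In STIFF over SOFT its log2 ratio was 2.02 in fibroblast-like and -1.38 in immune-like cells, a difference of 3.40. In SOFT over MATR it was 0.72 in immune-like and -2.00 in fibroblast-like cells, a difference of 2.71, and -0.86 in basal-like cells, 1.58 below the immune-like value. In COL1 over STIFF it was 0.79 in immune-like and -0.82 in fibroblast-like cells, a difference of 1.61.

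Col23a1 in COL1 over STIFF had a log2 ratio of 1.51 in basal-like and -3.21 in fibroblast-like cells, a difference of 4.71 that rests on 17 UMIs in COL1 and 8 in STIFF in basal-like cells, and on 3 in COL1 and 39 in STIFF in fibroblast-like cells. Col6a1 in COL1 over MATR had a log2 ratio of 0.61 in HR-positive and -0.86 in fibroblast-like cells, a difference of 1.48. Col7a1 in STIFF over SOFT had a log2 ratio of 1.22 in immune-like and -0.71 in HR-positive cells, a difference of 1.92. Within the 3 HR-positive clusters its levels were 15.8 CPM in STIFF and 14.8 in SOFT, 43.2 in STIFF and 49.8 in SOFT, and 31.0 in STIFF and 36.2 in SOFT, and the first of these clusters, with the lowest levels, held 645 cells in STIFF and 73 in SOFT. In immune-like cells 23 of 24 measured chains were higher in STIFF than in SOFT, as were pan-luminal, fibroblast and basal markers, and the part of other cells' RNA was not tested.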

How the results depend on the processing

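No paired analysis was possible because each condition was 1 culture and no replicate exists. All values therefore rest on single cultures, and depth limits the low chains, many of which have under 30 UMIs in a class and condition. The counts of chains led by fibroblast-like and by basal-like cells stayed within 1.5 times of the reported ones under every alternative run for them, and so did the counts of chains past 1.5-fold in SOFT over MATR in both classes and all counts under scaling by trimmed mean of M-values. The fibroblast-like collagen total stayed below MATR in SOFT and in COL1 under all alternatives run for it. Within the finer clusters, an alternative chosen after seeing the data, 13 single-chain values moved and 10 did not in the pericyte-led cluster, and 10 moved and 21 did not in the fibroblast-led one. The cause of the changes below was not tested.

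With the relative tag rule, the log2 ratio of the collagen total over all singlets was 0.90 for COL1 over MATR, 0.51 for STIFF over SOFT, 0.37 for COL1 over STIFF and 0.028 for SOFT over MATR. The collagen total as log2 ratio in fibroblast-like cells was -0.35 for COL1 over MATR, -0.039 for STIFF over SOFT, 0.12 for COL1 over STIFF and -0.43 for SOFT over MATR. That log2 ratio in basal-like cells was -0.30 for COL1 over MATR, -0.28 for COL1 over STIFF and -0.45 for SOFT over MATR. Past 1.5-fold, the chain count in basal-like cells was 6 for COL1 over MATR and 7 for STIFF over SOFT. The count of intracellular genes past 1.5-fold was 2 in COL1 over MATR (fibroblast-like), 3 in STIFF over SOFT (fibroblast-like), 1 in SOFT over MATR (fibroblast-like) and 5 in SOFT over MATR (basal-like). The count of extracellular genes past 1.5-fold was 1 in STIFF over SOFT (fibroblast-like), 1 in COL1 over STIFF (fibroblast-like), 1 in COL1 over STIFF (basal-like) and 3 in SOFT over MATR (basal-like). The sign of a called log2 ratio turned, to -0.15 for Col9a3 in COL1 over STIFF (fibroblast-like), -0.090 for Col1a1 in COL1 over MATR (basal-like) and 0.039 for Col3a1 in SOFT over MATR (basal-like). With the margin tag rule, the collagen total as log2 ratio over all singlets was 0.81 for COL1 over MATR, 0.41 for STIFF over SOFT, 0.39 for COL1 over STIFF and 0.0059 for SOFT over MATR. That log2 ratio in fibroblast-like cells was -0.57 for COL1 over MATR, 0.076 for STIFF over SOFT, -0.28 for COL1 over STIFF and -0.37 for SOFT over MATR. As log2 ratio the total in basal-like cells was -0.25 for COL1 over MATR, 0.35 for STIFF over SOFT, -0.22 for COL1 over STIFF and -0.38 for SOFT over MATR. Past 1.5-fold, the chain count in fibroblast-like cells was 16 for COL1 over MATR and 8 for COL1 over STIFF. The count of chains past 1.5-fold in basal-like cells was 4 for COL1 over MATR and 7 for STIFF over SOFT. The sign of a called log2 ratio turned, to 0.40 for Col4a6 in COL1 over STIFF (fibroblast-like), -0.64 for Col1a1 in COL1 over MATR (basal-like) and -0.29 for Col3a1 in COL1 over STIFF (basal-like). With the finer clustering (fibroblast-led cluster as the class), as log2 ratio the total in fibroblast-like cells was -0.61 for COL1 over MATR, -0.018 for STIFF over SOFT and -0.60 for SOFT over MATR. The log2 ratio of the collagen total in basal-like cells was 0.33 for STIFF over SOFT and -0.00015 for COL1 over STIFF. Within the pericyte-led cluster, an alternative chosen after seeing the data, the log2 ratio of the collagen total in fibroblast-like cells was -0.11 for COL1 over MATR, 0.33 for STIFF over SOFT, 0.0079 for COL1 over STIFF and -0.45 for SOFT over MATR. With collagen genes used in clustering, the collagen total as log2 ratio in fibroblast-like cells was 0.0067 for STIFF over SOFT and 0.018 for COL1 over STIFF. That log2 ratio in basal-like cells was 0.34 for STIFF over SOFT and -0.011 for COL1 over STIFF. The fibroblast-like share of collagen UMIs was 82.1% in COL1, 77.2% in STIFF and 77.9% in MATR. Without the cells of highest doublet score, the collagen total as log2 ratio over all singlets was 0.41 for STIFF over SOFT, 0.62 for COL1 over STIFF and -0.25 for SOFT over MATR. That log2 ratio in fibroblast-like cells was -0.52 for COL1 over MATR, 0.025 for STIFF over SOFT, -0.10 for COL1 over STIFF and -0.44 for SOFT over MATR. As log2 ratio the total in basal-like cells was -0.32 for COL1 over MATR and -0.22 for COL1 over STIFF. The number of chains past 1.5-fold in basal-like cells was 4 for COL1 over MATR and 7 for COL1 over STIFF. With the stricter cell filter, that log2 ratio over all singlets was 0.41 for STIFF over SOFT and -0.20 for SOFT over MATR. Past 1.5-fold, the chain count in basal-like cells was 1 for COL1 over MATR. With 10 CPM added, past 1.5-fold, the chain count in fibroblast-like cells was 7 for STIFF over SOFT and 2 for COL1 over STIFF. The count of chains past 1.5-fold in basal-like cells was 0 for COL1 over MATR, 4 for STIFF over SOFT and 0 for COL1 over STIFF. With 50 UMIs required, the count of chains past 1.5-fold in fibroblast-like cells was 7 for STIFF over SOFT and 2 for COL1 over STIFF. The number of chains past 1.5-fold in basal-like cells was 1 for COL1 over STIFF. With tags ignored, the fibroblast-like share of collagen UMIs was 73.7% in the COL1 and STIFF pool and 74.8% in the MATR and SOFT pool. Thinned to 5000 UMIs, the share of immune-like cells with a Col14a1 UMI was 13.6% in COL1, 8.71% in STIFF, 15.1% in SOFT and 12.8% in MATR. Thinned to 5000 UMIs, the share of fibroblast-like cells with a Col14a1 UMI was 9.59% in COL1, 18.4% in STIFF, 4.94% in SOFT and 14.4% in MATR.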
